A study of Rattus norvegicus with 12 samples.

Results

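The ATP-driven efflux pumps of the liver were followed as a family of 10 genes, Abcb1a, Abcb1b, Abcb4, Abcb11, Abcc2, Abcc3, Abcc4, Abcg2, Abcg5 and Abcg8, of which 8 were measured among 18166 genes. A gene was taken where a transcript cluster of the array named exactly 1 gene symbol, and a gene with several clusters was represented by the cluster chosen by its highest mean signal over the 12 arrays. Abcb11, the bile salt export pump, and Abcc2, the pump for conjugated anions, were not analysed here. All rats were male obese Zucker rats, homozygous for the fa allele of the leptin receptor gene, aged 5 to 6 weeks at the start and housed 2 per cage. One group of 12 rats ate a control diet, and another group of 12 ate a diet with 5% of a biotechnologically grown oyster mushroom, called PSC in the labels. Livers were taken on day 29, and 6 randomly chosen rats of each diet were profiled on Affymetrix Rat Gene ST arrays. Both diets were given to obese rats with the same receptor defect, and no lean rats were analysed here. The labels do not say which rats shared a cage.

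ABC transporters use ATP to move molecules across membranes. In hepatocytes the canalicular pumps load bile: the P-glycoproteins Abcb1a and Abcb1b export hydrophobic drugs and cations, Abcb4 moves phosphatidylcholine into the outer leaflet, Abcg2 exports urate and sulfated conjugates, and Abcg5 with Abcg8 forms the heterodimer that exports cholesterol and plant sterols. Abcc3 and Abcc4 lie on the basolateral side and return conjugated bile acids and drug metabolites to the blood.

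The RefSeq promoter table for the rat assembly GRCr8 held 8 of the 10 family genes. It had no entry for Abcb11 or Abcc3, whose promoters were not searched. The stretches below come from that promoter table. They are shown because the paralogs Abcb1b and Abcb1a differed in their diet difference, whereas Abcg5 and Abcg8 share a single stretch between their starts. Lines run 5′ to 3′ along the gene for Abcb1b and Abcb1a, at positions -250 to -128 relative to the table's start, on the minus strand at chr4:26280157-26280279 and chr4:26397776-26397898. The line for Abcg5 and Abcg8 is the plus strand of chr6:15717731-15717935, the 205 bases between both starts. Capitals mark the searched motifs on either strand.

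Abcb1b: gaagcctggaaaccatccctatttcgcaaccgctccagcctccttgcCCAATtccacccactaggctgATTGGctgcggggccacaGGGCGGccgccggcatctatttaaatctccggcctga
Abcb1a: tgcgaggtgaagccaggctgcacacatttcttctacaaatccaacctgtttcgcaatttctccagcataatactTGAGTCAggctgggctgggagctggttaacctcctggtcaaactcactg
between Abcg8 and Abcg5: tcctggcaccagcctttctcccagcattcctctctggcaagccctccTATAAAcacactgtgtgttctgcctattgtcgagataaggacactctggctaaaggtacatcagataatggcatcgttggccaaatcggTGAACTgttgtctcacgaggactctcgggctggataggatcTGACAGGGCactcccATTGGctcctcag

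The Abcb1b stretch holds CCAAT, its reverse complement ATTGG and the GC box GGGCGG, whereas the Abcb1a stretch holds TGAGTCA, a match to TGANTCA. The CCAAT box is the core bound by NF-Y, GGGCGG the core bound by Sp1 and TGANTCA the core bound by AP-1. Among 27457 promoters (250 bases before to 50 after the start), 37.7% held CCAAT, 34.9% held GGGCGG and 7.33% held TGANTCA, counting both strands. Abcb1a holds a GGGCGG too, at -124 to -119, just outside the stretch printed. The bases shared by Abcg5 and Abcg8 hold TATAAA (14.3% of promoters), TGACNNNGC (12.2%), the core of the NRF2 element, AGTTCA (14.4%) and CCAAT, and the windows of both genes overlap, so their matches are the same sites. The table's starts of Abcb1a, Abcb1b, Abcb4, Abcc4 and Abcg2 lie inside the annotated gene spans, not at their outer ends. The inverted repeat bound by FXR (0.0255% of promoters) and the NF-kB site (0.0947%) matched none of the 8 promoters, the AGGTCA repeat unit (15.7%) matched that of Abcc2 alone, and GCGTG (31.1%), the core of the AHR element, matched Abcb4, Abcc4 and Abcg2. These are letter matches in a fixed window and say nothing about binding.

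Livers of PSC-fed rats held less Abcb1b RNA than those of controls, and 1 of the 8 measured pumps passed the test. Abcb4, Abcb1a and Abcc3 were lower on average but did not pass, and Abcc4, Abcg2, Abcg5 and Abcg8 differed little in their means. In whole liver, fewer cells of a type and less RNA per cell cannot be told apart. Signals are log2 values, so a difference of 1 is a doubling, and adjusted p is from limma with Benjamini-Hochberg adjustment over all 18166 genes at a threshold of 0.05. Signals of different genes come from different probes and are not set against each other as amounts.

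For Abcb1b (cluster 17781129), the drug pump gene of the pair that is known to rise in stressed or regenerating rodent liver, control arrays ran from 6.74 to 8.83 with a median of 7.76. PSC arrays ran from 4.85 to 6.61 with a median of 5.795. The lowest control lay above the highest PSC array, so the diets did not overlap. The means were 7.76 ± 0.74 and 5.82 ± 0.72 (SD, n = 6 each), a difference of -1.94 on the log2 scale (SE 0.35, 95% interval -2.68 to -1.19, limma adjusted p = 0.0133), or 3.82-fold lower with PSC. Dropping any single rat kept it past the threshold (12 of 12 fits, -2.14 to -1.72, limma adjusted p between 0.00654 and 0.0409). Probes for Abcb1b and Abcb1a may bind the RNA of both, since these paralogs are close in sequence.

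Abcb1a (17781099), the paralog that carries most P-glycoprotein of the rodent blood-brain barrier and gut, ran from 5.92 to 6.75 in controls (median 6.205) and from 5.16 to 6.24 with PSC (median 5.755). The diets overlapped, with 4 of 6 PSC arrays below the lowest control. The means of 6.23 ± 0.31 and 5.75 ± 0.39 (SD, n = 6) differed by -0.48 (SE 0.17, 95% interval -0.85 to -0.10, limma adjusted p = 0.155).

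Abcb4 (17781157), whose product supplies the phospholipid of bile, ran from 9.02 to 9.96 in controls (median 9.405) and from 8.15 to 9.63 with PSC (median 8.38). PSC replicate 4 lay among the controls and the other PSC arrays lay below all of them, 5 of 6. The means of 9.47 ± 0.39 and 8.60 ± 0.56 (SD, n = 6) differed by -0.88 (SE 0.23, 95% interval -1.38 to -0.38, limma adjusted p = 0.0593), 1.84-fold. Whether Abcb4 passed depended on that array and on the settings of the fit. Without PSC replicate 4 the difference was -1.08 (limma adjusted p = 0.00576), while across all 12 fits that left out 1 array adjusted p ran up to 0.136. With all arrays kept, limma adjusted p was 0.0359 with bright genes only and 0.0397 with a trended variance prior. In the other settings that kept all arrays it ran from 0.0567 to 0.099.

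Abcg2, the urate and conjugate pump (17783946), ran from 4.61 to 5.25 in controls and from 3.94 to 5.47 with PSC, with medians of 4.83 and 4.835. The PSC range enclosed the control range, from replicate 2 at the bottom to replicate 5 at the top. Its difference of -0.09 (SE 0.19, limma adjusted p = 0.841) has a 95% interval of -0.50 to 0.33.

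The sterol pump genes Abcg5 (17819927) and Abcg8 (17813757) are transcribed away from each other. Abcg5 ran from 3.81 to 4.05 in controls (median 3.99) and from 3.94 to 4.56 with PSC (median 4.035). Abcg8 ran from 3.86 to 4.12 in controls (median 4.01) and from 3.86 to 4.34 with PSC (median 4.135). Both overlapped between the diets. Both genes were dim, brighter than only 26.3% (Abcg5) and 26.4% (Abcg8) of genes, and differences of dim genes can be compressed. Abcg5 differed by 0.15 (SE 0.09, 95% interval -0.05 to 0.35, limma adjusted p = 0.389) and Abcg8 by 0.13 (SE 0.08, -0.04 to 0.29, adjusted p = 0.404). A p that misses the threshold does not show equal levels, and these intervals bound how far the mean signals may differ.

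Of the basolateral pumps, Abcc3 (17660092) ran from 6.09 to 7.99 in controls (median 6.585) and from 5.54 to 7.12 with PSC (median 5.925). PSC replicate 4 again lay among the controls, and 5 of 6 PSC arrays lay below the lowest control. The means of 6.80 ± 0.66 and 6.05 ± 0.56 (SD, n = 6) differed by -0.75 (SE 0.29, 95% interval -1.37 to -0.13, limma adjusted p = 0.178). Without PSC replicate 4 the difference was -0.96 with adjusted p = 0.0492, and without control replicate 6 it was -0.51 with adjusted p = 0.287. Abcc4 (17705225) was the steadiest member: 6.19 to 6.45 in controls and 6.27 to 6.42 with PSC, every PSC array inside the control range, with a difference of 0.01 (95% interval -0.12 to 0.13, limma adjusted p = 0.973).

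**Figure D1:**
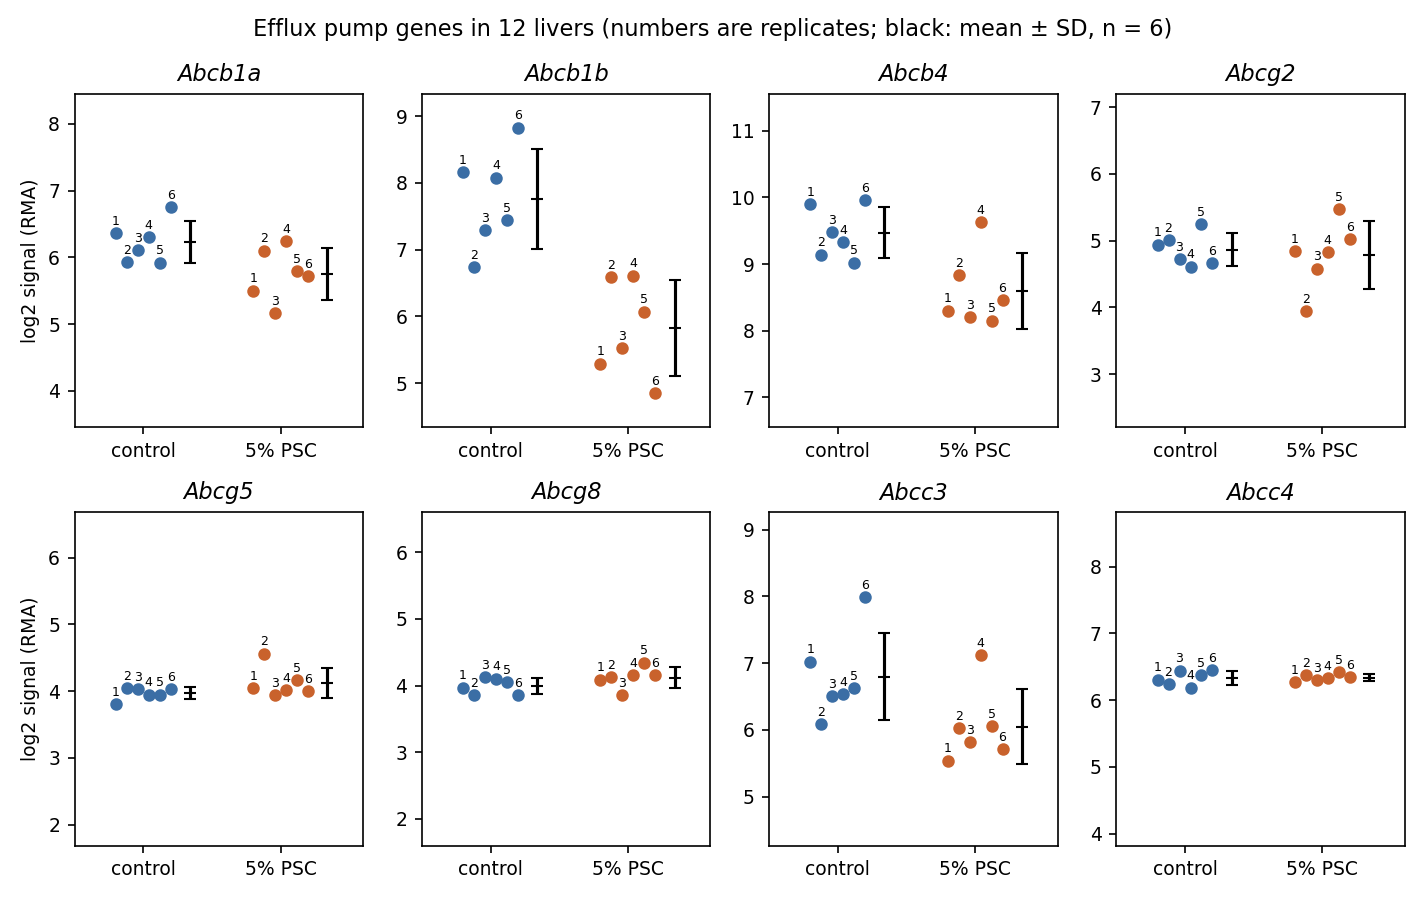
Log2 signal of the 8 measured pump genes on each array, control and 5% PSC diet; points are rats numbered by replicate, black bars the mean and SD of 6, and every panel spans the same log2 height. Abcb1b runs from 6.74 to 8.83 in controls and from 4.85 to 6.61 with PSC, whereas Abcc4 stays between 6.19 and 6.45.

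The members were chosen with earlier results of these data known, so the shares that follow are a description and not a test. Read against all genes, 1 of 8 members passed the adjusted threshold where 2.6% of genes did. It was lower with PSC, as 1.89% of genes were, and no member was among the 0.716% that were higher. Abcb1b was also the 1 member without overlap between the diets, against 2.19% of genes. At unadjusted p below 0.05 the count was 4 of 8 (Abcb1a, Abcb1b, Abcb4 and Abcc3), all lower, where 19.1% of genes passed in either direction and 10.1% passed as lower. The members' median difference was -0.28 and that of all genes 0.01. Rats within a diet also varied more in these genes than in most: the pooled SD was 0.73 for Abcb1b, 0.61 for Abcc3, 0.48 for Abcb4, 0.40 for Abcg2 and 0.36 for Abcb1a, each above that of at least 98.1% of genes, against 0.08 for Abcc4 and a median of 0.14 over all genes.

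**Figure D2:**
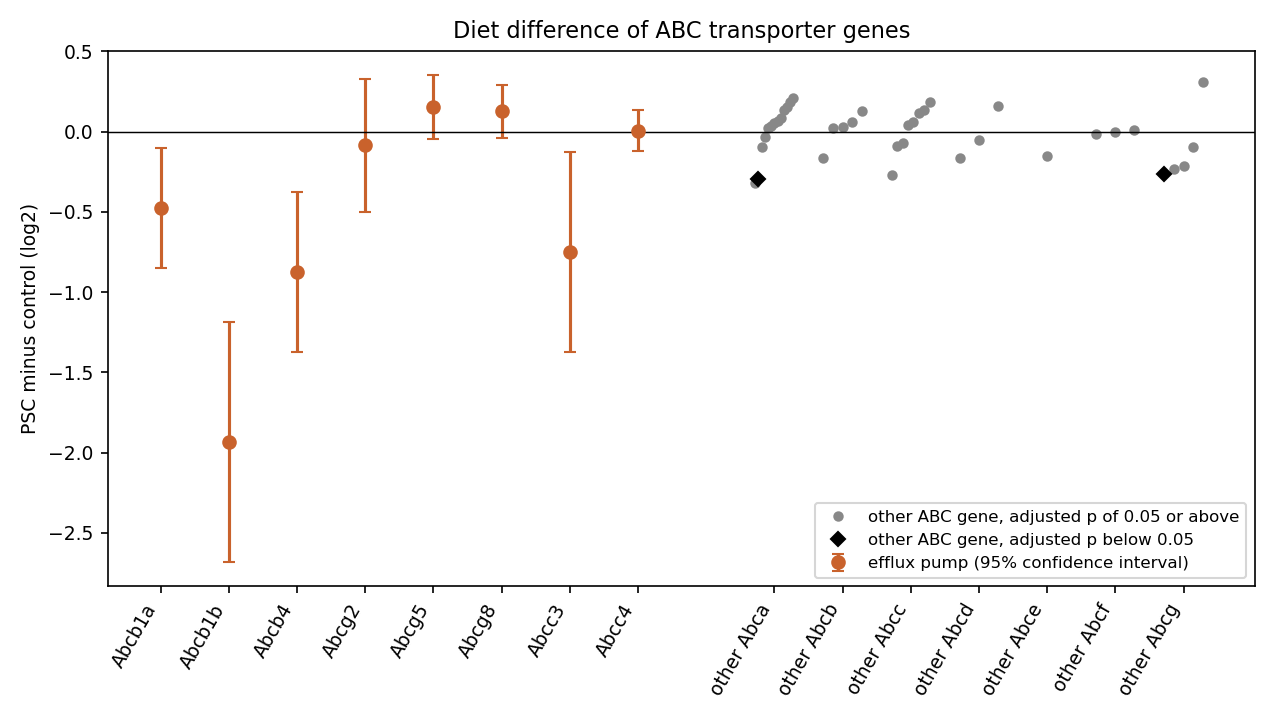
Difference between diets (PSC minus control, log2): orange points are the 8 measured pumps with their 95% intervals from limma, and the points to their right are the 38 other ABC genes by subfamily, black diamonds where adjusted p was below 0.05. Abcb1b lies at -1.94, Abcb4 at -0.88, Abcc3 at -0.75 and Abcb1a at -0.48, and the other ABC genes lie between -0.32 and 0.31.

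Whether pumps of like role or sequence differed in their diet difference was tested on the log2 difference between both genes in each rat, over all assignments of the 12 arrays to diets, for 4 pairs. Abcb1b minus Abcb1a ran from 0.81 to 2.08 in controls and from -0.87 to 0.49 with PSC. The ranges did not overlap, and the mean moved from 1.53 ± 0.46 to 0.07 ± 0.52 (SD, n = 6), a change of -1.46 (exact permutation p = 0.0022, the smallest this design can give, adjusted p = 0.00866 over 4 pairs). Abcb1b minus Abcb4 moved by -1.06 (exact permutation p = 0.0108, adjusted p = 0.0216), its ranges overlapping between -2.40 and -2.08. Abcc4 minus Abcc3 moved by 0.76 (exact permutation p = 0.0476, adjusted p = 0.0635), and by 0.97 with adjusted p = 0.00866 without PSC replicate 4 and 0.88 with adjusted p = 0.0433 without control replicate 2. Abcg5 minus Abcg8 moved by 0.03 (exact permutation p = 0.877). The paired members were chosen with earlier results of these data known, so these p-values are not independent support.

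With each diet mean removed, the 6 highest correlations from rat to rat were those among 4 of the pumps. No pair passed adjustment within either diet alone, where 6 arrays leave the test little room to do so. Abcb1a, Abcb1b, Abcb4 and Abcc3 were grouped after their values were seen: control replicate 6 was the highest control and PSC replicate 4 the highest PSC array for each of them. Their 6 pairs had Pearson r of 0.78 to 0.93 over the 6 control arrays, 0.64 to 0.88 over the 6 PSC arrays and 0.68 to 0.83 over 12 arrays after each diet mean was removed. Over all 28 member pairs the median pooled r was 0.25 and 20 were positive, and over all 164992695 gene pairs the median was 0.003, with 5th and 95th percentiles of -0.55 and 0.56.

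**Figure D3:**
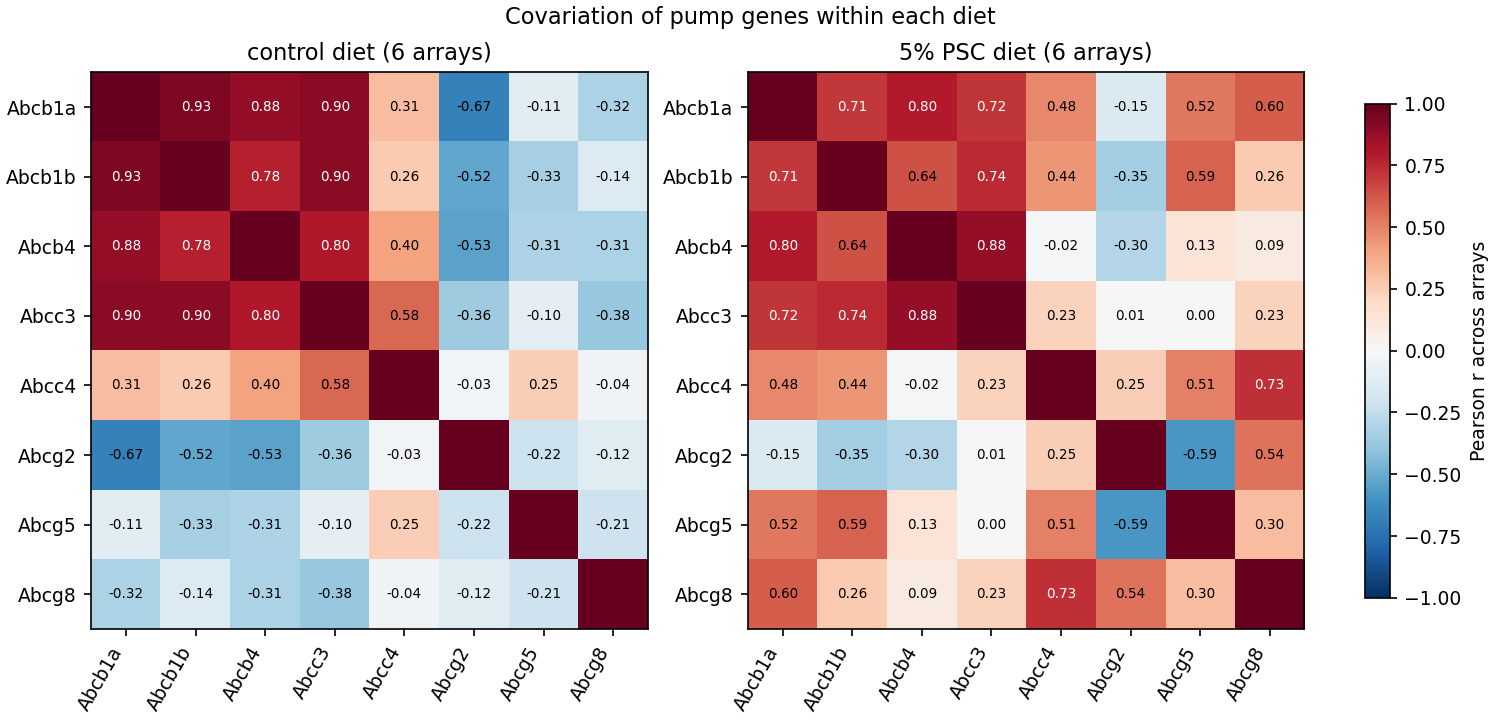
Pearson r between the 8 measured pump genes over the 6 control arrays and over the 6 PSC arrays. Abcb1a, Abcb1b, Abcb4 and Abcc3 form a block of 0.64 or more in both panels, and Abcg2 is negative with each of them in controls.

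Of the 28 pairs, 5 passed after adjustment in the pooled test by exact permutation within diets, and 0 passed within either diet alone, where 5 pairs in controls and 1 with PSC had unadjusted p below 0.05. The 6 arrays of a diet have only 720 orders, which leaves a test within 1 diet little room to pass adjustment over 28 pairs. The missing calls there do not show that pairs were unrelated. Abcb1b with Abcc3, a canalicular and a basolateral pump, had pooled r = 0.83 (exact permutation p = 0.000625, adjusted p = 0.0175; rho 0.91, exact permutation p = 0.000486), with 0.90 in controls and 0.74 with PSC. Abcb1a with Abcb4 had pooled r = 0.82 (exact permutation p = 0.00166, adjusted p = 0.0181; rho 0.80, exact permutation p = 0.00624). The paralogs Abcb1a and Abcb1b had pooled r = 0.80 (exact permutation p = 0.00349, adjusted p = 0.0195; rho 0.80, exact permutation p = 0.00624).

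Without the 2 of 12 arrays farthest from the diet medians of the first gene, these 3 pooled values were 0.72, 0.85 and 0.85, and 0 of 28 pairs passed adjustment by exact permutation. Abcb4 with Abcc3 had pooled r = 0.82 (exact permutation p = 0.00325, adjusted p = 0.0195) but rho of 0.43 (exact permutation p = 0.202). Without the 2 farthest arrays its pooled r was 0.54, and without the 2 farthest of each diet it was 0.13 in controls and -0.64 with PSC, so the relation rests on those arrays. The neighbours Abcb1b and Abcb4 had pooled r = 0.68 (exact permutation p = 0.0172, adjusted p = 0.0800; rho 0.57, exact permutation p = 0.0777). The 5 calls rest on few rats: 0 pairs passed without control replicate 6 and 1 without PSC replicate 4.

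The partners Abcg5 and Abcg8 showed no clear covariation. Their pooled r was 0.18 (exact permutation p = 0.532, adjusted p = 0.709) and their rho 0.02 (exact permutation p = 0.954). Within diets r was -0.21 in controls and 0.30 with PSC. Both genes were dim and varied little, so these signals cannot show whether the partners vary together. The basolateral pair Abcc3 and Abcc4 had pooled r = 0.46 (exact permutation p = 0.175, adjusted p = 0.687; rho 0.51, exact permutation p = 0.118). The lowest pooled values were those of Abcg2 with Abcg5, at -0.53, and of Abcg2 with Abcb1b, at -0.38, both at adjusted p = 0.687 by exact permutation.

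**Figure D4:**
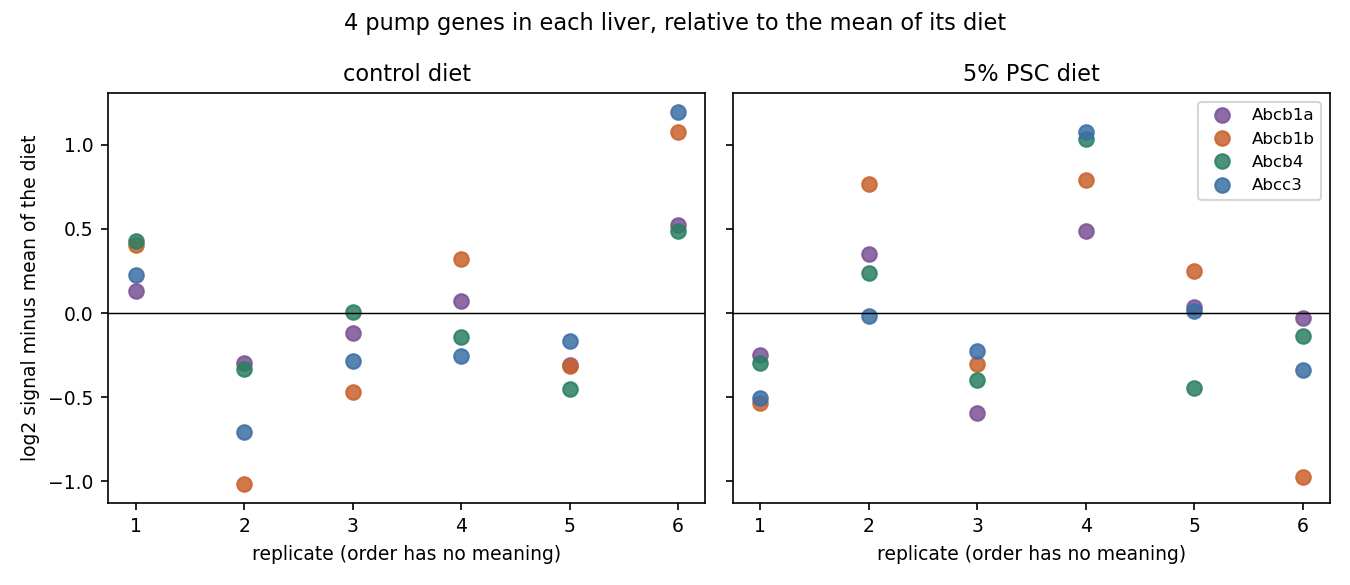
Log2 signal of Abcb1a, Abcb1b, Abcb4 and Abcc3 on each array minus the gene's mean over the 6 arrays of that diet; the x axis is the replicate number, which has no order. All 4 genes are at their highest in control replicate 6 and in PSC replicate 4.

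The genes whose rat-to-rat pattern within diets was most like that of Abcb1b were Apol3l1 (pooled r 0.98), Anxa5 (0.98), a calcium-dependent membrane-binding annexin, Ces2c (0.97), a carboxylesterase, Nucb1 (0.96) and Qng1 (0.96). Hagh, the glyoxalase that hydrolyses lactoylglutathione, ran most opposite (-0.96), followed by Mgll (-0.94), the monoacylglycerol lipase. The diet difference of Anxa5 was -0.99 (limma adjusted p = 0.00952), that of Ces2c -0.99 (adjusted p = 0.0183) and that of Hagh 0.39 (adjusted p = 0.0109), while Apol3l1, Nucb1, Qng1 and Mgll did not pass. Among the 18165 other genes Abcc3 ranked 194, Abcb1a 277 and Abcb4 918 by likeness to Abcb1b. Such values are extremes picked from many genes over 12 arrays and carry no p.

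Abcb4 was most like Col1a2 (0.97), a fibrillar collagen chain, Fbn1 (0.93), fibrillin of elastic microfibrils, Slc17a4 (0.93), Cherp (0.93) and Ablim3 (0.93). Prxl2a (-0.95) and Ranbp17 (-0.94) ran most opposite, and Abcb1a ranked 82 and Abcc3 91. Abcc3 was most like Lrrn4 (0.98), Slc17a3 (0.97), an organic anion transporter, Nt5c2 (0.96), Cnn3 (0.96) and Nat8f2 (0.96), and most opposite to Smoc1 (-0.97) and Chpt1 (-0.95).

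The labelled tissue held its markers: 9 measured hepatocyte genes of a list of 10 had a mean log2 signal of 11.74 to 11.86 in controls and 11.79 to 11.92 with PSC, and 0 passed between the diets (1 at unadjusted p below 0.05, limma). Some genes of other cell types passed between the diets. Among all genes 2.6% passed and 19.1% had unadjusted p below 0.05 (limma). Of 10 stellate cell and fibroblast genes, 4 were lower (Dcn, Col1a2, Rgs5 and Col3a1), 0 were higher and 7 had unadjusted p below 0.05, all lower. Dcn and Col1a2 passed in 12 of 12 fits that left out 1 array, Rgs5 in 3 and Col3a1 in 2. Their mean ran from 7.06 to 7.28 in controls and from 6.74 to 7.08 with PSC. PSC replicate 4, the highest PSC array for Abcb4 and Abcc3, was also the highest PSC array for this list. This was not particular to stellate genes. The same array was highest for the red cell list and for the lists of partner transporters, receptors, receptor targets and anchoring genes read below. It was not highest for the hepatocyte, bile duct, endothelial, Kupffer or lymphocyte lists. Of 10 Kupffer cell and macrophage genes, 1 was higher (Cd163, 0.87, limma adjusted p = 0.0436, passing in 4 of 12 fits that left out 1 array), 9 had positive differences and 6 had unadjusted p below 0.05. Their mean ran from 6.15 to 7.13 in controls and from 7.02 to 7.37 with PSC. The list's PSC minimum was PSC replicate 4, as was that of the bile duct list.

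Of 9 bile duct genes, 1 was lower (Spp1, -0.63, limma adjusted p = 0.0287, 3 genes at unadjusted p below 0.05), with list means of 4.47 to 4.54 and 4.35 to 4.54. Of 10 lymphocyte genes, 1 was higher (Nkg7, 0.51, limma adjusted p = 0.0266, 5 genes unadjusted), with means of 4.27 to 4.54 and 4.50 to 4.66. Spp1 and Nkg7 each passed in 8 of 12 fits that left out 1 array. Against 2.6% of all genes called and 19.1% at unadjusted p below 0.05 (limma), single calls in such short lists do not show a change of a cell type. Among 6 endothelial genes 0 passed (2 at unadjusted p below 0.05, limma), with means of 7.28 to 7.44 and 7.24 to 7.40, and among 3 red cell genes 0 passed (1 unadjusted), with means of 5.61 to 6.39 and 5.50 to 5.96. No detection calls were used, so the absence of a marker cannot be read from these signals.

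Beside the shared rat-to-rat pattern of Abcb1a, Abcb1b, Abcb4 and Abcc3, the mean signals of the marker lists varied within diets too. The stellate list had pooled r of 0.51 to 0.81 with these pumps, highest for Abcb4 (r = 0.81, exact permutation p = 0.0141, adjusted p = 0.212; rho 0.71, exact permutation p = 0.0202), with 0.942 for Abcb4 and 0.915 for Abcc3 over the 6 PSC arrays. Without the 2 of 12 arrays farthest from the list's diet medians, the value for Abcb4 was 0.335, so that relation rests on those arrays. The hepatocyte list ran the opposite way, with pooled r of -0.68 to -0.60 (lowest exact permutation p = 0.0227, adjusted p = 0.212). The Kupffer list had r of -0.918 to -0.775 over the PSC arrays but -0.235 to 0.105 over the controls, and the red cell list had pooled r of 0.31 to 0.69. These relations also leaned on a few arrays. Without the 2 arrays farthest from each list's diet medians, pooled r was -0.576 to -0.249 for the hepatocyte list. It was then 0.000159 to 0.297 for the Kupffer list and 0.0639 to 0.538 for the red cell list. Of 28 relations between a list and a pump, 0 passed adjustment and 6 had unadjusted p below 0.05 by exact permutation. Stellate markers include Col1a2, the gene most like Abcb4. The part of these cell types in the pump differences between diets was not tested.

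The genes around the pumps were read from their order on GRCr8. Abcb4, Abcb1b and Abcb1a lie side by side. On the Abcb4 side, Tmem243, a small membrane protein gene just beyond Crot, fell by 0.37 (SE 0.09, limma adjusted p = 0.0460; pooled r with Abcb1b 0.88), passing in 3 of 12 fits that left out 1 array, and Crot, a peroxisomal carnitine acyltransferase, differed by -0.13 (adjusted p = 0.436). On the Abcb1a side Rundc3b differed by 0.22 (adjusted p = 0.163) and Slc25a40, Dbf4, Adam22 and Steap4 by -0.03 to 0.10. Sema3d, Grm3 and Mir879 lay between -0.02 and 0.10. Of the 10 nearest measured genes around Abcg5 and Abcg8, 0 passed (1, Plekhh2, at unadjusted p below 0.05, limma), with differences from -0.08 to 0.17.

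**Figure D5:**
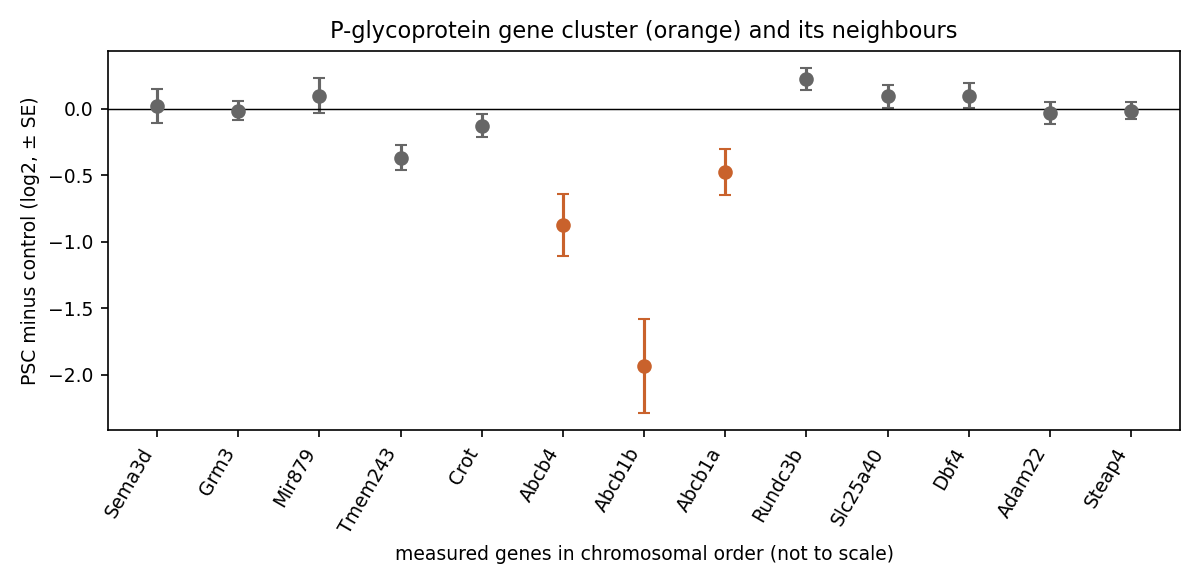
Diet difference (PSC minus control, log2) of Abcb4, Abcb1b and Abcb1a (orange) and of the 5 nearest measured genes on each side (grey), in chromosomal order and not to scale; bars are the standard error from limma. Abcb1b is the lowest at -1.94, Tmem243 is at -0.37 and the other neighbours lie between -0.13 and 0.22.

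Genes that feed, control or anchor the pumps were read from lists of symbols. Among all genes 2.6% passed the adjusted threshold, 1.89% as lower and 0.716% as higher. At unadjusted p below 0.05 (limma) 19.1% of all genes passed, 10.1% as lower. Of 14 measured partner transporters (18 listed), 1 was lower: Slc10a2, the apical bile acid carrier of cholangiocytes and ileum, by -0.53 (SE 0.12, limma adjusted p = 0.0384, passing in 3 of 12 fits that left out 1 array). Slc10a1, the hepatocyte uptake carrier for bile acids, differed by 0.23 (adjusted p = 0.0607). The median of the list was 0.04, and 6 of the 14 had unadjusted p below 0.05 (limma), 2 of them lower. Of 16 measured receptors and factors (18 listed), 2 were higher and 0 lower: Rxra, the common dimer partner of the nuclear receptors that regulate the pumps, by 0.32 (SE 0.06, adjusted p = 0.0186) with no overlap between the diets, and Ppara, the fatty acid receptor known to induce Abcb4 in rodents, by 0.41 (SE 0.09, adjusted p = 0.0345). Rxra passed in 11 of 12 fits that left out 1 array and Ppara in 4. Of the 16, 5 had unadjusted p below 0.05 (limma), 1 of them lower.

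Of 28 measured targets of FXR, PXR, CAR, NRF2, AHR and LXR (32 listed symbols, some of them spelling variants or members of the lists above), 1 was lower and 0 higher: Cyp3a18, a steroid and drug hydroxylase, by -1.12 (SE 0.27, limma adjusted p = 0.0435, passing in 4 of 12 fits that left out 1 array). Cyp2b1 differed by -0.67 (adjusted p = 0.153), and the median of the list was 0.01. Both named targets were lower, but 14 differences of the list were positive and 14 negative. At unadjusted p below 0.05 (limma) 7 of the 28 passed, 2 of them lower, where 19.1% of all genes passed, 10.1% as lower. Of 14 measured genes for anchoring and trafficking of canalicular pumps (18 listed), 0 passed (6 at unadjusted p below 0.05, limma, 5 of them lower). The closest were the tight junction gene Tjp1 at -0.22 (adjusted p = 0.075) and the scaffold gene Pdzk1 at 0.46 (adjusted p = 0.0803), and the median was -0.11.

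The other ABC transporters were measured by 38 genes, and 2 were lower and 0 higher, with differences from -0.32 to 0.31 and a median of 0.02. Abca5, a lysosomal and endosomal lipid transporter, fell by 0.30 (SE 0.07, limma adjusted p = 0.0378) with no overlap between the diets. Abcg3l3, of the rodent Abcg3 group, fell by 0.26 (SE 0.06, adjusted p = 0.0456), and passed in 1 of 12 fits that left out 1 array against 2 of 12 for Abca5. By subfamily, 1 of 13 Abca genes and 1 of 5 Abcg genes passed, and 0 of 5 Abcb, 8 Abcc, 3 Abcd, 1 Abce and 3 Abcf genes did. At unadjusted p below 0.05 (limma) 12 of the 38 passed, 8 of them lower. Among all genes 19.1% did so in either direction and 10.1% as lower. The 12 were 4 Abca, 1 Abcb, 2 Abcc, 1 Abcd and 4 Abcg genes. Abcb1b, at -1.94, lay outside the range of all 38.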

How the data were processed

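Liver RNA of 12 rats was profiled. Each transcript cluster has a deposited log2 signal per array, for which the submitters' processing notes name RMA and Affymetrix Expression Console without versions. RMA corrects background, equalises the arrays' distributions and summarises probes, which can compress differences of dim genes. Median array signals lay between 5.3 and 5.35, and arrays correlated at 0.987 to 0.995 over genes, and precision is limited by the number of arrays. Of 30347 clusters, 18511 name 1 symbol, 575 several and 11261 none. For 291 genes with several clusters the brightest was used. RefSeq matched 18059 genes by gene number.

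Groups came from the sample titles. Diets were compared over 18166 genes in a two-sided limma 3.58.1 fit (statmod 1.5.0, R 4.3.3) adjusted by Benjamini-Hochberg. Pump pairs were set against each other by exact permutation, two-sided, over rats (Python 3.11.15, scipy 1.17.1, numpy 2.4.6, matplotlib 3.10.9). P-values measure the spread between these rats, some of which may share a cage. Members and lists were chosen with earlier results of these data known. Named genes were all members, the called genes of each list or else its 2 smallest p, the 5 neighbours on each side, and the 5 most and 2 least alike genes for Abcb1b, Abcb4 and Abcc3. Planned comparisons with Abcb11 and Abcc2 were not run, and 4 of 6 pump pairs and 28 member pairs remained. Protein identities were not computed. Alternatives covered normalization, filters, the variance prior, array weights, the replicate block and left-out arrays; cyclic loess and leaving out PSC replicates 2 and 5 together were added after seeing the data. On simulated data for the diet comparison over 18166 genes, 100% of 100 genes changed by 1 and 79% of 100 changed by 0.5 (log2) were recovered. Those genes were drawn at random, each with its own SD and independent normal noise. Abcb1a, Abcb1b, Abcb4, Abcc3 and Abcg2 have SDs above those of at least 98.1% of genes, so these shares do not give the recovery for them.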

Additional observations from a re-analysis of the deposited data

Results flagged for a closer look

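The highest PSC array of Abcc3 stood apart from the others, with PSC replicate 4 at 7.12 against 6.06 for the next array. The same array gave the lowest PSC value of Abcc4 minus Abcc3, -0.79. For Abcg5, PSC replicate 2 was the highest at 4.56 against 4.17 for the next. In 24 groups of 6 arrays that were screened, 3 groups had an array that stood out this way, and chance gives about 1 in 20. Those for Abcc3 and for Abcc4 minus Abcc3 were the same array, PSC replicate 4. The groups of pair differences reuse the values of the genes, so the 24 are not independent and the count cannot be weighed against that share.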

How the results depend on the processing

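The call of Abcb1b held, with -2.19 to -1.72 and adjusted p up to 0.0409, in every alternative run other than the replicate block, where adjusted p was 0.0566. Same-numbered arrays did not deviate together (correlations of -0.151 to 0.111, 1 of 6 above 0.1). Such correlations cannot show whether the numbers pair the rats, for instance by cage, and the labels do not say. With the replicate block 0 pumps were called, and the changes of Abcb1b minus Abcb1a (-1.458) and of Abcb1b minus Abcb4 (-1.058) both had adjusted p = 0.125 in an exact permutation of signs. With 6 differences that permutation cannot give p below 0.03125, the value Abcb1b minus Abcb1a had, which 4 pairs adjust to 0.125, so the lost call of that pair follows from the design; Abcb1b minus Abcb4 had p = 0.0625 by the same exact permutation. The count of called pumps was 2 with bright genes only (Abcb4 at 0.0359), 2 with a trended prior (0.0397), 2 at adjusted p below 0.1, 4 at unadjusted p with a fold of at least 1.3, and 1 to 3 when 1 array was left out. The count of covarying pairs was 1 by Spearman, 0 with the farthest arrays left out, 2 without PSC replicates 2 and 5, and 0 to 6 when 1 array was left out; fewer arrays entered the latter 3. Abcc4 minus Abcc3 moved by 0.54 to 0.971 when 1 array was left out. Values near 0 changed sign: Abcc4 (-0.02333 without PSC replicates 2 and 5, -0.0237 to 0.0283 with 1 array left out), Abcg2 (-0.223 to 0.083), Abcg5 minus Abcg8 (-0.03667; -0.0587 to 0.071), Abcg5 with Abcg8 (r -0.3013 after another quantile normalization; -0.0856 to 0.37) and Abcg2 with Abcg5 (r -0.73 to 0.35). The median of all genes moved between 0.00348 and 0.02 over the scalings.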
